A study of Saccharomyces cerevisiae with 25 samples.

Results

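A pair of engineered yeast strains, each with a single-base change in or beside a gene of fatty acid metabolism, was compared directly by RNA sequencing: 5 cultures labelled *OAF1(L63S)* (2A, 2B, 2D, 2E and 2F; strain YFA1132) and 5 cultures labelled *OLE1(FAR)* (3C, 3D, 3E, 3F and 3G; strain YFA1133). Each edit placed the natural allele of the wine strain RM into the laboratory strain BY. The paper describes the BY allele of *OAF1* as rare and as probably reducing the function of Oaf1. These 10 libraries were all those of the series whose labels carry either edit, out of 25 libraries from 5 strains. The remaining libraries came from an *RGT2(V539I)* strain (YFA1134, used only in the joint fit) and from the wild types YFA1130, made by taking a GFP tag off *FAA4*, and YFA1131, made by putting *RGT2* back in place of its *KanMX* deletion, with 5 cultures each. All strains were MATa haploids of the laboratory BY background with the markers *his3Δ1 leu2Δ0 met15Δ0 ura3Δ0*, all had been edited by CRISPR-Swap, and all grew in minimal medium with glucose. Every strain stands under 1 strain number, so the replicates were cultures of one engineered strain, and a second change carried by a strain cannot be told apart from its named edit.

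Oaf1 is a zinc cluster transcription factor. Together with its partner Pip2 it binds oleate response elements and switches on genes of peroxisomes and of fatty acid beta-oxidation when cells are given oleate. *OLE1* encodes the delta-9 desaturase, the yeast enzyme that makes unsaturated fatty acids, and its transcription depends on Mga2 and Spt23, membrane-bound factors that are released from the ER membrane when membranes are short of unsaturated fatty acids. The direct comparison asks which genes take different levels under a change in the activator of fatty acid breakdown and under a change upstream of the desaturase gene, without a wild type in between.

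Both edits are shown first because they are the designed difference between the strains. Coordinates are those of the sacCer3 (R64) reference on its forward strand, and sequences are from RefSeq. The capital marks the edited base, first as in BY and then as edited. In *OAF1* (YAL051W, chromosome I) the substitution T48751C lies within the coding sequence, in codon 63, and the window covers chrI:48731-48771.

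*OAF1*, BY: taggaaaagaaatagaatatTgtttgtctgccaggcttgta
*OAF1*, edited: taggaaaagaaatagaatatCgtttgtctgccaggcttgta

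The *OLE1(FAR)* edit, A398081G, lies between genes on chromosome VII in the window chrVII:398061-398101. The start codon of *OLE1* (YGL055W) is 547 bases away on one side and that of *SDS23* (YGL056C) 463 bases away on the other.

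*OLE1* upstream, BY: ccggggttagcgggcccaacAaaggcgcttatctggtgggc
*OLE1* upstream, edited: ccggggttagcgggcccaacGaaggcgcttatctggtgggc

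Total estimated counts of the 25 libraries ran from 9216531 to 14644996. Levels of a gene are given as CPM, which are counts relative to the library total after edgeR's TMM scaling. They are not divided by gene length, so they compare one gene between libraries and not one gene with another. *STE2*, the pheromone receptor of MATa cells, was at 1260 to 1310 CPM in *OAF1(L63S)* libraries and at 1140 to 1280 CPM in *OLE1(FAR)* libraries. Of the 10 genes listed to check the strain background, *LEU2*, *URA3* and *MET17* (the gene deleted in *met15Δ0*) had no count in any of the 25 libraries, while *HIS3*, only partly removed by *his3Δ1*, was at 93 to 113 CPM in *OAF1(L63S)* and 88.6 to 107 CPM in *OLE1(FAR)*. *MFA1* and *MFA2*, the a-factor genes that MATa cells use, were also listed at 0 in every library. The alpha-cell genes *MFALPHA1* and *STE3* did not exceed 2.37 CPM and 6.25 CPM in the libraries of either strain.

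Cultures 2A and 3C did not sit with the other cultures of their labels, and this bears on every result that follows. *IZH4*, a membrane protein gene linked to zinc and lipid metabolism, shows it most plainly. It was at 47.57 CPM in the library labelled 2A and at 3.251, 3.51, 2.63 and 3.67 CPM in 2B, 2D, 2E and 2F, all labelled *OAF1(L63S)*. In *OLE1(FAR)* it was at 2.434 CPM in the library labelled 3C and at 45.28, 50.7, 47.06 and 49.25 CPM in 3D, 3E, 3F and 3G. Each of the 2 libraries thus fell within or beside the range of the other strain. Between the remaining 4 cultures of each strain, 72 genes differed at a false discovery rate (FDR) of 10% with a log2 fold change beyond 0.5 in size. At 69 of these 72 genes (95.8%) 2A was nearer to the median of the *OLE1(FAR)* cultures, and at 65 (90.3%) 3C was nearer to that of the *OAF1(L63S)* cultures. On a scale where the median of the 4 *OLE1(FAR)* cultures is 0 and that of the 4 *OAF1(L63S)* cultures is 1, the median position over the 72 genes was 0.00961 for 2A and 1.1 for 3C. The other cultures lay between 0.97 and 1.09 for *OAF1(L63S)* and between -0.0459 and 0.0937 for *OLE1(FAR)*, but these 8 cultures chose the genes and set the scale, so their places on it are no comparison for 2A and 3C.

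**Figure D1:**
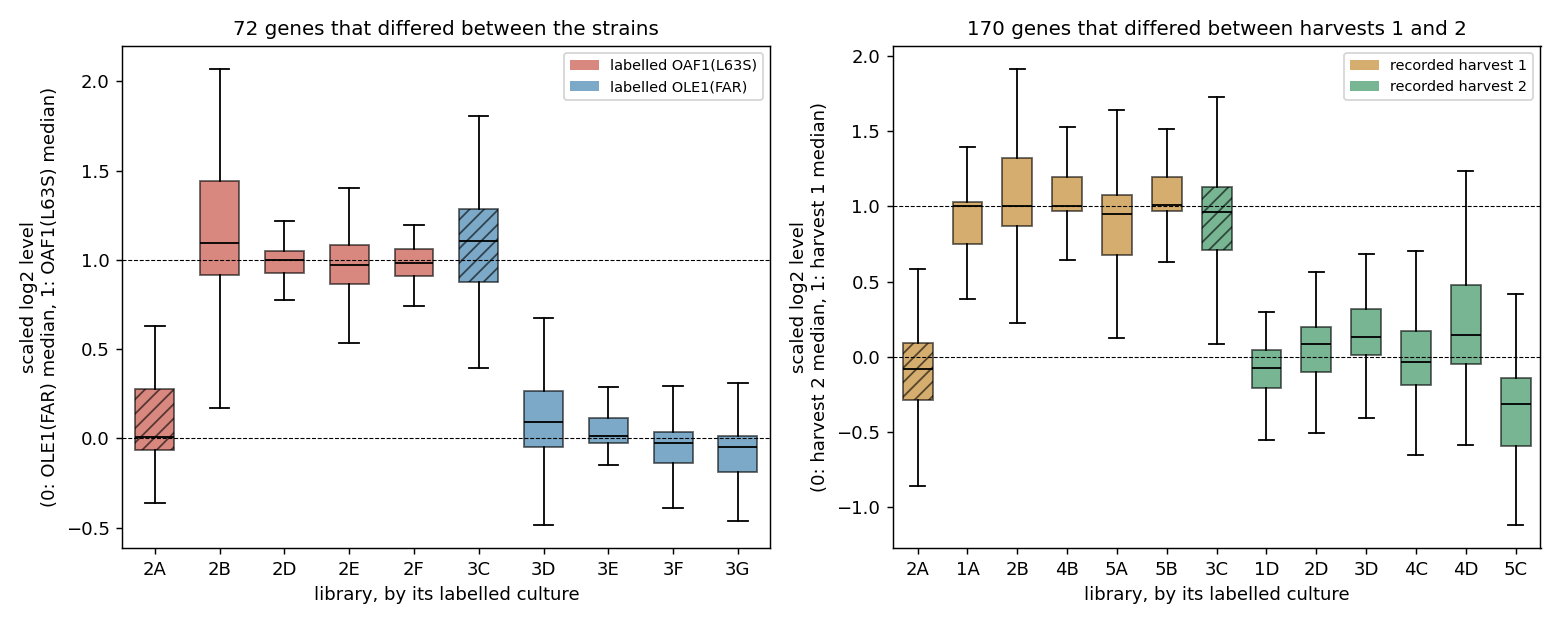
Position of single libraries between 2 group medians, over the 72 genes that separate the strains (scale 0 for *OLE1(FAR)*, 1 for *OAF1(L63S)*) and over 170 genes that separate harvest batches 1 and 2. Boxes show quartiles with the median, whiskers reach 1.5 times the interquartile range, and points beyond them are not drawn. The libraries labelled 2A and 3C lie at the level of the opposite group in both panels, with medians of 0.00961 and 1.1 in the strain panel.

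Harvest batch gave a reading on genes that were not chosen by the strain contrast. Some of them, such as *OLE1*, *SPS19* and *BIO2*, were also called between the strains, so it is not free of the strain difference. By the study's records 2A was harvested in batch 1 and 3C in batch 2. Between these batches 170 genes differed at the same FDR with a log2 fold change beyond 0.5, in a fit that left out 2A and 3C. The library labelled 2A was nearer to the harvest 2 median at 163 of the 170 genes (95.9%), and the library labelled 3C was nearer to the harvest 1 median at 147 (86.5%). Each of the other 11 libraries of the 2 harvests, placed against medians that left it out, was nearer to the other harvest at 0.588% to 28.2% of these genes. But these 11 libraries took part in choosing the 170 genes, so their shares are no fair comparison for 2A and 3C. Of the 45 pairs among the 10 libraries, 2A and 3D had the least different counts (chi-square per degree of freedom 4.915), while the closest library to 3C was 2B (17.08). No pair came near 1, the value for counting noise alone, so no library was counted as a repeat of another.

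No library was relabelled. Counts of calls are given as labelled, with 5 libraries against 5, and without 2A and 3C, with 4 against 4, and a gene counts as called only where it passed both ways. Because these 2 libraries were left out on the strength of their measured levels, the second fit is not an independent check of the first, and an exchange of cultures, RNA or libraries was not tested beyond these values. Of the *OAF1(L63S)* cultures, 2A and 2B belong to harvest 1, where *OLE1(FAR)* has no culture, 2D to harvest 2 and 2E and 2F to harvest 3. Of the *OLE1(FAR)* cultures, 3C and 3D belong to harvest 2 and 3E, 3F and 3G to harvest 3.

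As labelled, 174 of 5713 genes tested (3.05%) differed between *OAF1(L63S)* and *OLE1(FAR)* at an FDR of 10% in edgeR's quasi-likelihood test, 70 higher and 104 lower in *OAF1(L63S)*. Without 2A and 3C, 155 genes differed (2.71%), 63 higher and 92 lower. Both fits called 139 genes, with the same sign for every one of them: 55 were higher in *OAF1(L63S)* (0.963% of genes tested) and 84 lower (1.47%). Differences were mostly small. Among the 139 genes the median size of the log2 fold change was 0.493 without 2A and 3C, 27 exceeded 1 and 70 were under 0.5. The median log2 fold change over all genes was -0.00364 as labelled and 0.00229 without the pair. The libraries of the strains did not overlap at 4 of the 139 genes when all 10 were counted, against a background of 0.543% of all genes. Without 2A and 3C they did not overlap at 117 of the 139, with a background of 5.97%. The 139 genes were called from these same libraries, and 2A and 3C were left out for their levels. These shares are therefore no support for the calls. The fit held batch terms and surrogate variables, which are sample-wide trends estimated from the counts. Without the surrogate variables alone, 32 genes passed as labelled, 29 of them among the 174. With neither them nor batch terms, so that genotype was the only term, no gene passed as labelled in edgeR (233 at an unadjusted p under 0.05), while 100 passed without 2A and 3C. In all that follows, a gene is said to have risen, fallen or been called only if it passed in both fits, and log2 fold changes are *OAF1(L63S)* over *OLE1(FAR)* from the fit without 2A and 3C unless stated otherwise, with their standard errors (SE) and with p-values adjusted after Benjamini and Hochberg over all 5713 genes.

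**Figure D2:**
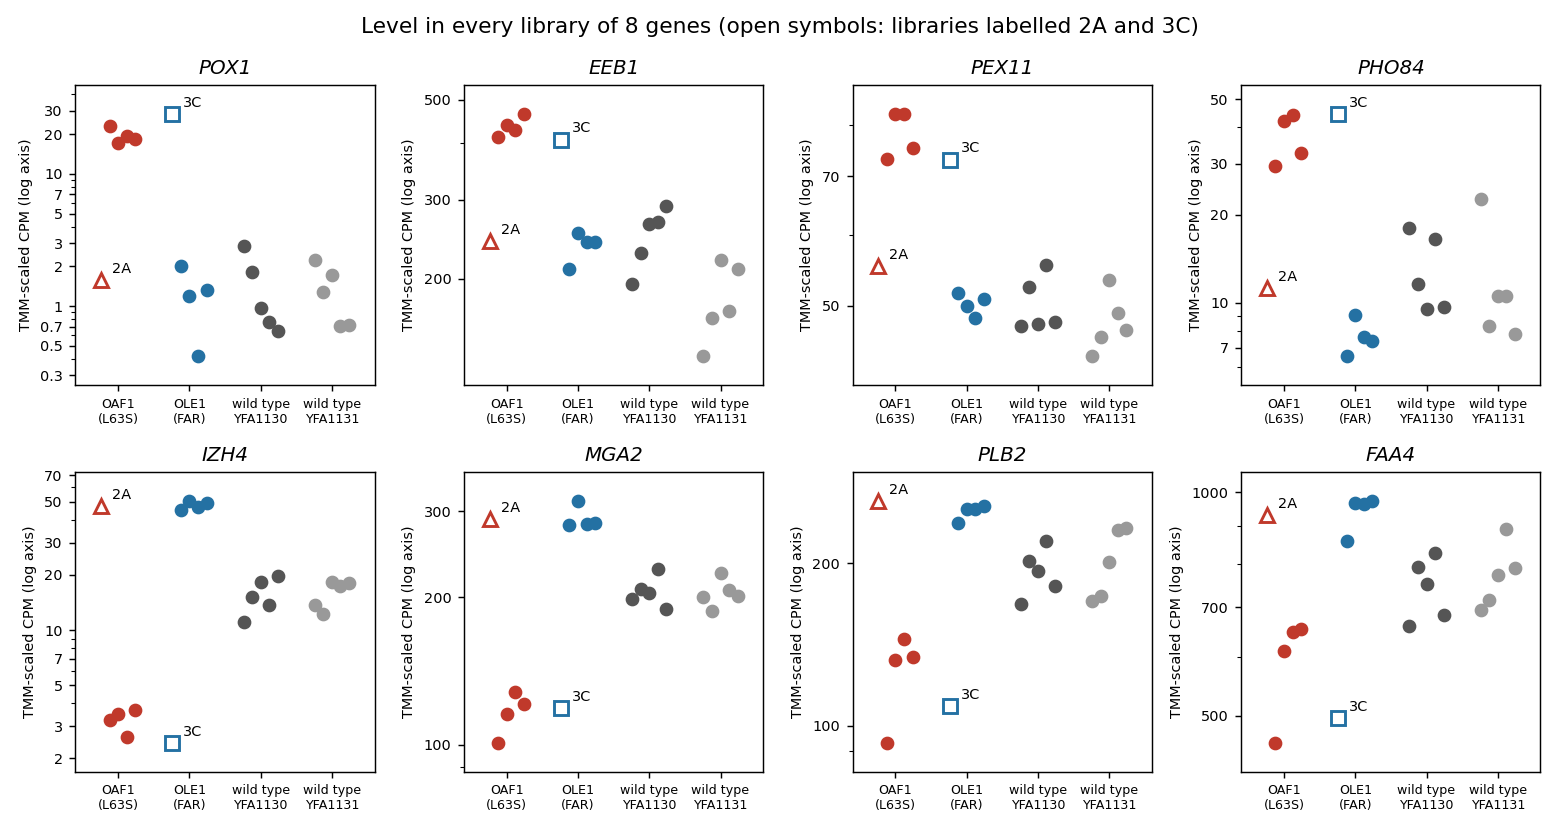
Levels of 8 genes in every library, as CPM on a log axis, for *OAF1(L63S)*, *OLE1(FAR)* and the wild types YFA1130 and YFA1131. Each symbol is 1 library, and open symbols mark 2A and 3C. For *POX1*, *EEB1*, *PEX11* and *PHO84* the filled *OAF1(L63S)* symbols lie above those of *OLE1(FAR)*, for *IZH4*, *MGA2*, *PLB2* and *FAA4* below them, and in each panel the open symbols lie with or near the filled symbols of the opposite strain.

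Genes of peroxisomal fatty acid breakdown were among those higher in *OAF1(L63S)*. *POX1*, the acyl-CoA oxidase that opens the beta-oxidation cycle, was at 22.84, 17, 19.39 and 18.44 CPM in the *OAF1(L63S)* cultures 2B, 2D, 2E and 2F and at 1.577 CPM in 2A. In *OLE1(FAR)* it was at 2.004, 1.201, 0.4194 and 1.333 CPM in 3D, 3E, 3F and 3G and at 28.4 CPM in 3C. Without 2A and 3C the groups were far apart, and *OLE1(FAR)* sat at the level of the wild types: 19.4 ± 2.49 CPM in *OAF1(L63S)* and 1.24 ± 0.6501 CPM in *OLE1(FAR)* (SD, n = 4 each), against 1.40 ± 0.920 CPM in YFA1130 and 1.32 ± 0.651 CPM in YFA1131 (SD, n = 5 each). The log2 fold change of *POX1* was 3.68 ± 0.331 (SE, edgeR adjusted p = 1.72e-06) and 3.50 as labelled (edgeR adjusted p = 2.33e-08). As labelled, the plain means were 15.8 CPM in *OAF1(L63S)* and 6.67 CPM in *OLE1(FAR)*. Other settings tried as labelled gave *POX1* log2 fold changes down to 1.27, and 3 of them lost its call. By the 2-sided exact permutation test of *POX1* alone, p was 0.0286 without the pair, the smallest that 4 libraries against 4 allow, and 0.151 as labelled, where 0.00794 is the smallest. The pair was left out for its measured levels, and *POX1* had the largest rise among the remaining libraries. The value without the pair was therefore largely fixed in advance and is no independent support.

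Of 15 tested genes of peroxisomal beta-oxidation, 5 rose (33.3%, against 0.963% of all genes tested that were called higher) and none fell, with a median log2 fold change of 0.19, against 0.00229 over all genes. The counts of the lists that follow stand against the same 0.963% for genes that rose and 1.47% for genes that fell. Besides *POX1* these were *SPS19* (0.70), a dienoyl-CoA reductase, *ANT1* (0.63), the adenine nucleotide carrier of the peroxisomal membrane, *FAA2* (0.60), an acyl-CoA synthetase, and *ECI1* (0.46), an enoyl-CoA isomerase. Unlike *POX1*, these 4 genes differed by well under 2 units on the log2 scale. *ANT1* was at 65.69, 54.62, 62.16 and 62.48 CPM in 2B, 2D, 2E and 2F and 41.09 CPM in 2A, against 37.99, 39.25, 39.84 and 39.71 CPM in 3D, 3E, 3F and 3G and 61.76 CPM in 3C. Other members of the pathway did not pass: the multifunctional enzyme *FOX2* had a log2 fold change of 0.07, the isomerase-like *DCI1* 0.02 and the peroxisomal catalase *CTA1* 0.23. The call of *ECI1* was the least stable, since it was lost in 7 of the 8 fits that left out 1 more library (all but 3F), at log2 fold changes of 0.35 to 0.53. The thiolase *POT1* was on the list and fell below the filter on low counts.

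Of 4 regulators of the oleate response, *PIP2*, the partner of Oaf1, rose (log2 fold change 0.40, adjusted p = 0.00878 from edgeR). It was at 72.28 to 75.8 CPM in the 4 *OAF1(L63S)* cultures without 2A and at 51.15 to 57.54 CPM in the 4 *OLE1(FAR)* cultures without 3C. The transcript of *OAF1* itself was not distinguishable between the strains, at 58.8 ± 3.28 CPM in *OAF1(L63S)* and 58.9 ± 3.69 CPM in *OLE1(FAR)* (SD, n = 4 each, adjusted p = 0.986 from edgeR). The log2 fold changes of *ADR1*, a glucose-repressed activator of peroxisomal genes, and of *OAF3*, a repressor, were 0.18 and 0.04, and neither passed. Among 28 peroxisome biogenesis genes 1 rose and 1 fell. *PEX11*, which drives peroxisome division, was at 73.19, 82.15, 82.23 and 75.32 CPM in 2B, 2D, 2E and 2F and 55.46 CPM in 2A. It was at 51.66, 49.97, 48.4 and 50.87 CPM in 3D, 3E, 3F and 3G and 73.03 CPM in 3C. The 5 *OAF1(L63S)* libraries and the 5 of *OLE1(FAR)* overlap only through 2A and 3C, and the log2 fold change was 0.67 ± 0.060 (SE). *PEX31*, a peroxisomal membrane protein gene, fell by 0.25 on the log2 scale, and lost its call without 2D (-0.24) or 3D (-0.22). In the glyoxylate list *MDH2*, cytosolic malate dehydrogenase, rose by 0.43 and *CIT2*, peroxisomal citrate synthase, by 0.41, out of 7 genes tested. *MDH2* lost its call with genotype as the only term (0.31, edgeR adjusted p = 0.438) and in both fits of the 2 strains alone. The levels of *CIT2* overlapped (340.5 ± 76.2 CPM in *OAF1(L63S)* and 351.3 ± 91.4 CPM in *OLE1(FAR)*, SD, n = 4 each) and its call was lost without surrogate variables (0.23, edgeR adjusted p = 0.931), and the sign turned with genotype as the only term (-0.04).

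*EEB1*, an acyltransferase that makes ethyl esters of medium-chain fatty acids, also rose. It was at 414.1, 440, 428.3 and 465 CPM in 2B, 2D, 2E and 2F and 242.8 CPM in 2A, against 210, 253.2, 241.8 and 240.8 CPM in 3D, 3E, 3F and 3G and 407.9 CPM in 3C. The log2 fold change was 0.99 ± 0.083 (SE, edgeR adjusted p = 9.88e-07). *FAT3*, needed for fatty acid uptake, was at 6.23 ± 0.893 CPM in *OAF1(L63S)* and 1.78 ± 0.497 CPM in *OLE1(FAR)* (SD over 4 libraries of each strain), and its log2 fold change was 1.78.

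Upstream sequences were searched for the element that the Oaf1 and Pip2 pair is known to bind, written as CGG, 3 bases, T, 1 base, A, 9 to 12 bases and CCG, on both strands of the 600 bases before each start codon. These windows can reach into a neighbouring gene. Of 5561 tested genes with such a window 130 (2.34%) held a match, against 14 of the 55 genes higher in *OAF1(L63S)* (25.5%) and 3 of the 84 lower (3.57%). Matches of 4 genes that rose are shown with 5 flanking bases on each side, on the strand of the gene, with the fixed bases in capitals. The *POX1* match shown lies at chrVII:107883-107905 on the forward strand, 275 to 253 bases before the start codon, and reads as a match on the opposite strand too. Another *POX1* match, not shown, lies on the opposite strand at chrVII:107846-107868, 312 to 290 bases before the start codon. The *PEX11* match lies at chrXV:48756-48778 on the reverse strand, 135 to 113 bases before the start codon, and that of *PIP2* at chrXV:1023348-1023368, also on the reverse strand, 156 to 136 bases before it. The *PIP2* match, too, reads as a match on both strands. Of the pair of *EEB1* matches, the one shown lies at chrXVI:369620-369642 on the reverse strand, 201 to 179 bases before the start codon.

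*POX1*: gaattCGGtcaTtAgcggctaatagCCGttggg
*PEX11*: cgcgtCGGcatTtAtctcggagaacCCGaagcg
*PIP2*: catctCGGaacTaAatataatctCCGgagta
*EEB1*: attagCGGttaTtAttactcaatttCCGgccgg

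Besides these 4, *ECI1*, *SPS19*, *FAA2*, *FAT3*, *TPO4*, *PHO84*, *YGR035C*, *BSC1*, *IFA38* and *SDH5* held a match among the genes that were higher. The 3 among the genes that were lower were *IZH2*, *ATF1* and *YHK8*. A match is a description of letters, and binding was not measured.

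The smallest adjusted p-values without 2A and 3C belonged to genes lower in *OAF1(L63S)*, with *IZH4* and the *OLE1* regulator *MGA2* first. *IZH4*, whose levels are given above, was at 3.27 ± 0.457 CPM in *OAF1(L63S)* and 48.1 ± 2.39 CPM in *OLE1(FAR)* (SD, n = 4 each). The wild types lay between the strains, at 15.6 ± 3.45 CPM in YFA1130 and 15.97 ± 2.77 CPM in YFA1131 (SD, n = 5 each). The *IZH4* log2 fold change was -3.77 ± 0.109 (SE, edgeR adjusted p = 6.85e-13) and -3.76 as labelled, where the plain means were 12.1 ± 19.8 CPM in *OAF1(L63S)* and 39.0 ± 20.5 CPM in *OLE1(FAR)* (SD, n = 5 each). All 4 *IZH* genes, which encode a family of membrane proteins related to adiponectin receptors, fell: *IZH1* by 0.65, *IZH2* by 0.53 and *IZH3* by 0.35 on the log2 scale. The call of *IZH3* was lost in 4 other settings, among them genotype as the only term (-0.26, edgeR adjusted p = 0.379). The other 5 genes of that list did not pass, among them the zinc transporter *ZRT1* (log2 fold change -0.05) and the zinc-responsive activator *ZAP1* (-0.20).

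*MGA2* fell as well. It was at 101, 115.5, 128.1 and 121.3 CPM in 2B, 2D, 2E and 2F and 289.4 CPM in 2A, against 280.9, 315.2, 282.2 and 284.4 CPM in 3D, 3E, 3F and 3G and 118.9 CPM in 3C. No *OAF1(L63S)* library other than 2A reached the level of the wild types, 205.9 ± 14.8 CPM in YFA1130 and 204 ± 13.4 CPM in YFA1131 (SD, n = 5 each), and every *OLE1(FAR)* library other than 3C lay above their means. The log2 fold change was -1.30 ± 0.055 (SE, edgeR adjusted p = 1.45e-10). *SPT23*, the paralog of *MGA2*, had a log2 fold change of -0.02, and the genes for the machinery that frees both factors, *RSP5*, *UBX2*, *CDC48*, *NPL4* and *UFD1*, had values between -0.08 and -0.01, none of which passed. *OLE1*, next to which the FAR edit lies, was at 821.8, 1273, 1277 and 1204 CPM in 2B, 2D, 2E and 2F and 977.7 CPM in 2A, against 883.2, 959.2, 981.3 and 1048 CPM in 3D, 3E, 3F and 3G and 1007 CPM in 3C. The groups overlapped through 2B, the harvest 1 culture, and the exact permutation test gave p = 0.2 without the pair (2-sided). In the fit across 23 libraries *OLE1* was called higher in *OAF1(L63S)*, with a log2 fold change of 0.35 ± 0.067 (SE, edgeR adjusted p = 0.00664) and 0.33 as labelled, and it was not called with genotype as the only term (0.25, edgeR adjusted p = 0.833) or with the 2 strains alone and isolation batch as a block (0.21, adjusted p = 0.719). Within harvest 3 the difference of mean log2 levels was 0.317, and in harvest 2 it was 0.528 between 2D and 3D. *SDS23*, the gene on the other side of the FAR edit, had a log2 fold change of -0.06, and *FLC2*, beside *OAF1*, -0.09, and neither passed.

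The element that Mga2 complexes are known to act through, ACTCAACAA, was found before *OLE1* at chrVII:398285-398293, 343 to 335 bases before the start codon and on the strand of the gene. It is given here because *MGA2* had the transcript that differed most in that list. Whether Mga2 acts at this element in these cultures was not tested.

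*OLE1* upstream element: tgaacACTCAACAAacctt

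Of all 5561 windows 28 (0.504%) held this run on either strand, against 1 of the 55 genes higher in *OAF1(L63S)* (1.82%, *OLE1* itself) and 3 of the 84 lower (3.57%: *HAP1*, *PEX31* and *YER188W*). The windows of *IZH4* and *MGA2* had no match to either element.

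Of 10 genes of fatty acid synthesis and elongation 4 were lower in *OAF1(L63S)* and 1 was higher. *ACC1*, acetyl-CoA carboxylase, fell by 0.58 on the log2 scale, *FAS1* and *FAS2*, the subunits of fatty acid synthase, by 0.60 and 0.46, and the elongase *ELO1* by 0.40. *IFA38*, the ketoreductase of very-long-chain elongation, rose by 0.18, and the other 5 did not pass, among them the elongase *ELO2* (0.09) and the reductase *TSC13* (0.08). The median of the list was -0.11, against 0.00229 over all genes. *FAS1* was at 1496, 2072, 2220 and 2000 CPM in 2B, 2D, 2E and 2F and 2939 CPM in 2A, against 2892, 3085, 2927 and 3086 CPM in 3D, 3E, 3F and 3G and 1991 CPM in 3C. Apart from 2A and 3C each *OAF1(L63S)* library was below each *OLE1(FAR)* library. *ELO1* overlapped between the groups and was not called without 3D (-0.29), and *IFA38* was not called without 2B, 2E, 3E or 3G (0.14 to 0.18). With the fit limited to the 2 strains and isolation batch as a block, the calls of *FAS1* (-0.66, edgeR adjusted p = 0.28) and *ACC1* (-0.61, 0.28) were lost at similar log2 fold changes.

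*FAA4*, an acyl-CoA synthetase gene for long-chain fatty acids, fell too. It was at 459.9, 611, 648.6 and 654.9 CPM in 2B, 2D, 2E and 2F and 931.3 CPM in 2A. In 3D, 3E, 3F and 3G it was at 859.5, 968.3, 965.5 and 974 CPM, and in 3C at 496.2 CPM. The means were 593.6 ± 91.2 CPM in *OAF1(L63S)* and 941.8 ± 55.0 CPM in *OLE1(FAR)* (SD, n = 4 each), against 743.5 ± 70.8 CPM in YFA1130 and 773 ± 77.6 CPM in YFA1131 (SD, n = 5 each). The log2 fold change was -0.60 ± 0.052 (SE, edgeR adjusted p = 1.47e-06). In the fit of the 2 strains with the isolation block it was -0.71 and did not pass (edgeR adjusted p = 0.194). The acyl-CoA binding protein gene *ACB1* fell by 0.38, a call lost without 2E (-0.33). Of the other genes of that list, *FAA1* passed without 2A and 3C alone (log2 fold change 0.21, adjusted p = 0.0121 from edgeR), and *FAA3* and *FAT1* passed in neither fit.

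Among lipid hydrolases and mannoproteins single members stood out. *PLB2*, 1 of 4 phospholipase B genes, was at 93.04, 132.4, 144.7 and 134 CPM in 2B, 2D, 2E and 2F and 261.1 CPM in 2A, against 237.7, 251.8, 252 and 255 CPM in 3D, 3E, 3F and 3G and 108.7 CPM in 3C. Its log2 fold change was -0.94 ± 0.052 (SE, edgeR adjusted p = 4.80e-09), while *PLB1* and *PLB3* had values of -0.06 and 0.06 and did not pass. *TIP1*, a cell wall mannoprotein gene, was at 297.1, 357.6, 337.8 and 360.3 CPM in 2B, 2D, 2E and 2F and 633.1 CPM in 2A, against 594.6, 547.8, 669.1 and 701.7 CPM in 3D, 3E, 3F and 3G and 306.4 CPM in 3C, a log2 fold change of -0.88. *DAN4*, of the same list of 7 tested genes, fell by 0.44, and lost its call without 2B, 2D, 3D, 3E or 3G (-0.42 to -0.28). *ATF1*, the alcohol acetyltransferase that makes acetate esters, fell by 0.50, opposite in sign to *EEB1*, the only other gene called among 4 of ester synthesis.

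Sterol genes moved little. Of 28 tested, *ERG3* (log2 fold change 0.32), *ERG5* (0.26) and *ERG8* (0.22), enzymes of ergosterol synthesis, rose and *HMG2*, an HMG-CoA reductase, fell by 0.51. *ERG3* was at 310.4, 325.4, 347.3 and 325.6 CPM in 2B, 2D, 2E and 2F and 286.5 CPM in 2A, against 281.8, 267.6, 249.5 and 245.2 CPM in 3D, 3E, 3F and 3G and 304 CPM in 3C. None of 17 phospholipid and inositol genes was called in both fits. The oxidase *ERO1* fell by 0.26, alone among 12 genes of ER folding, and the small heat shock gene *HSP12* rose by 0.64, alone among 12 stress genes. Of these calls *ERG5* was lost in 5 of the 8 fits that left out 1 more library, *ERO1* and *HSP12* in 6 each and *ERG8* without 2E or 3E, while *ERG3* and *HMG2* passed in all 8.

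**Figure D3:**
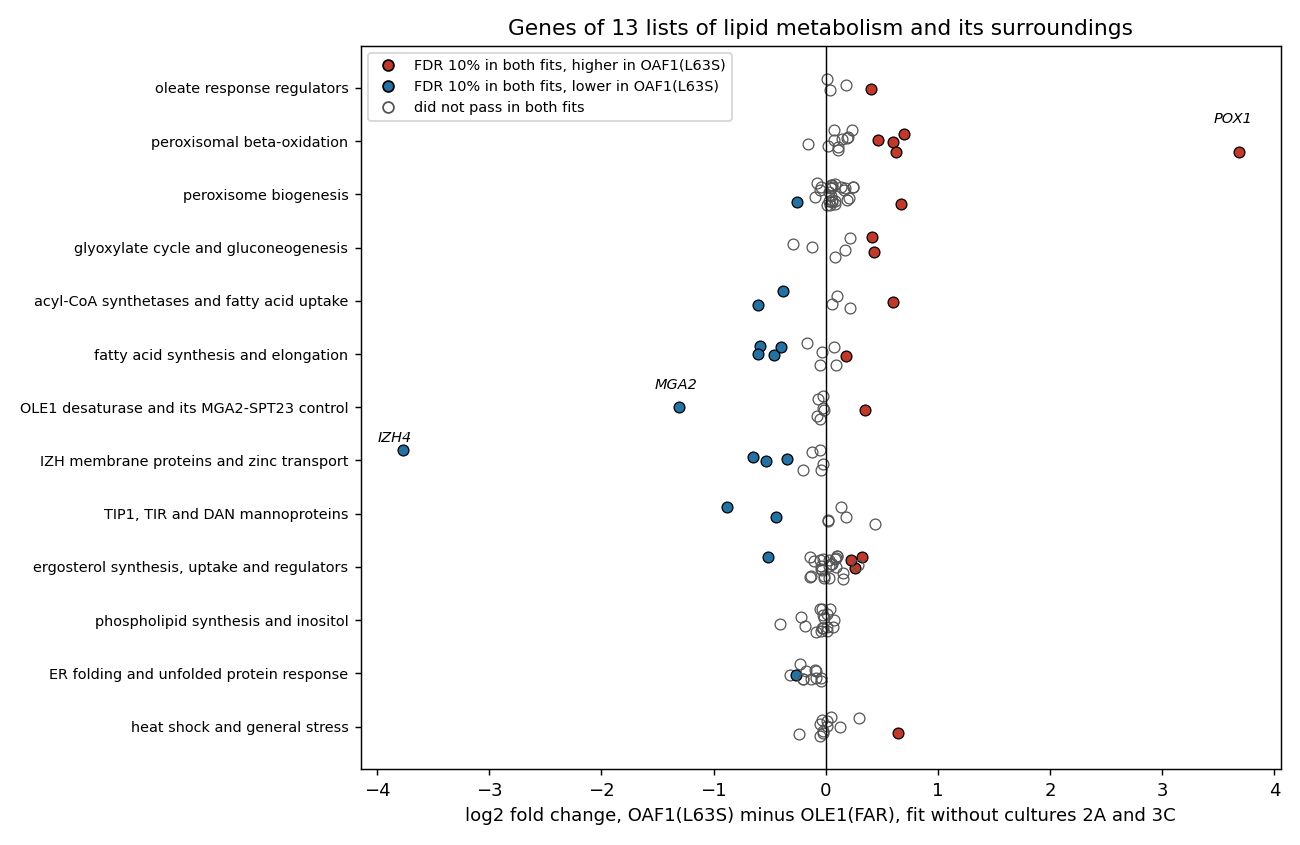
Log2 fold change of *OAF1(L63S)* over *OLE1(FAR)* for the tested genes of 13 lists, from the fit without 2A and 3C. Each point is 1 gene, red (higher) or blue (lower) where it passed the 10% FDR in both fits and open where it did not. Beta-oxidation genes that passed lie to the positive side, led by *POX1* at 3.68, and *IZH* genes to the negative side, led by *IZH4* at -3.77.

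Outside the lists, and with repeated gene families set aside, the largest differences on the higher side were led by *PHO84*, the high-affinity phosphate transporter. It was at 29.43, 42.11, 44.13 and 32.77 CPM in 2B, 2D, 2E and 2F and 11.21 CPM in 2A, against 6.56, 9.051, 7.633 and 7.367 CPM in 3D, 3E, 3F and 3G and 44.45 CPM in 3C. The log2 fold change was 2.25 ± 0.168 (SE, edgeR adjusted p = 2.85e-07). YFA1130 lay between the strains, at 13.1 ± 4.01 CPM (SD, n = 5). *SPL2*, a gene of phosphate homeostasis, followed at 1.44 with few counts, at 0.8337 to 2.084 CPM in *OAF1(L63S)* without 2A and 0.4911 to 0.82 CPM in *OLE1(FAR)* without 3C, and its call was lost without 2D, 2F, 3D, 3E or 3G (0.98 to 1.55). The polyamine transporter gene *TPO4* was called at 0.89 although its libraries overlapped, at 105 to 227.8 CPM in *OAF1(L63S)* and 90.33 to 194.4 CPM in *OLE1(FAR)* without the pair, and with genotype as the only term it was 0.30 and did not pass (edgeR adjusted p = 0.952). *SPS100* (1.24), *YGR035C* (1.16), *YHR140W* (1.10), *STE3* (0.81), *PRM7* (0.76) and *BSC1* (0.75) completed the 12 largest outside repeated families, and of these *STE3* lost its call without 2B, 2D, 2E, 3D, 3E or 3F (0.69 to 0.89). With genotype as the only term *PRM7* (0.69, edgeR adjusted p = 0.238) and *BSC1* (0.68, 0.344) did not pass. With the 2 strains alone and isolation batch as a block, none of these genes passed (edgeR adjusted p = 0.109 to 0.533). *PRM7* and *BSC1* are neighbours on chromosome IV, and for both 2B (84.45 and 31.26 CPM) was below every *OLE1(FAR)* library.

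On the lower side *IZH4* led the 12 largest differences outside repeated families, and 5 of the 12 genes take part in making or taking up biotin, which was noticed after their values were seen and was no list of its own. *BIO3*, *BIO4* and *BIO2*, enzymes of biotin synthesis, *BIO5*, a transporter of its precursors, and *VHT1*, the biotin transporter of the plasma membrane, had log2 fold changes of -2.05, -1.15, -1.48, -1.90 and -1.10. *BIO3* was at 17.76, 22.81, 24.75 and 27 CPM in 2B, 2D, 2E and 2F and 57.38 CPM in 2A, against 46.28, 72.59, 117.8 and 189.2 CPM in 3D, 3E, 3F and 3G and 17.4 CPM in 3C. The 4 *OLE1(FAR)* cultures without 3C varied widely, with 3D lowest and 3G highest for all 5 genes. *BIO5* shows the same breadth in a wild type, at 13.2 ± 15.4 CPM in YFA1131 (SD, n = 5). For *BIO3* the difference of mean log2 levels was -2.16 within harvest 3 and -1 between 2D and 3D in harvest 2. *YJR154W* and the aryl-alcohol dehydrogenase gene *AAD10*, neighbours on chromosome X, each had a log2 fold change of -1.35, again with 3D lowest and 3G highest among those 4 cultures. Without 3G the calls of *BIO3* (-1.40, edgeR adjusted p = 0.116), *BIO4* (-0.76, 0.287), *BIO5* (-1.32, 0.304), *VHT1* (-0.71, 0.185), *YJR154W* (-0.83, 0.134) and *AAD10* (-0.88, 0.134) were lost, while that of *BIO2* stood. Those of *BIO4* and *BIO5* were also lost without 2D (-0.95 and -1.56) or 2E (-0.98 and -1.75), and that of *BIO5* without 3E (-1.78). *GDH3*, a glutamate dehydrogenase, fell by 1.29 and *INA1* by 1.18. *INA1* was at 152.8, 242.9, 303.9 and 267.3 CPM in 2B, 2D, 2E and 2F and 610.5 CPM in 2A, against 621, 621.4, 543.4 and 551.9 CPM in 3D, 3E, 3F and 3G and 196.6 CPM in 3C.

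Of the 139 genes called in both fits, 30 were members of repeated families or shared their counts with another gene, 7 of them higher and 23 lower in *OAF1(L63S)*, including 18 transposon genes and 10 subtelomeric helicase or *COS* genes. How kallisto divided reads among such copies was not tested, and no fold changes are given for them.

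Both strains can also be read against YFA1130, the wild type with which the study paired them. These comparisons share the YFA1130 cultures with each other, and the strains' cultures with the direct contrast, so their values are set side by side only. Without 2A and 3C, *OAF1(L63S)* differed from YFA1130 at 94 genes (1.65% of 5713), 52 higher and 42 lower, and *OLE1(FAR)* at 29 (0.508%), 20 higher and 9 lower. *POX1* had a log2 fold change of 3.71 in *OAF1(L63S)* (adjusted p = 2.99e-08) and 0.02 in *OLE1(FAR)* (adjusted p = 0.997), both from edgeR. *PEX11* gave 0.65 and -0.02, *EEB1* 0.85 and -0.14, *ANT1* 0.58 and -0.04, and *PIP2* 0.45 and 0.05 for *OAF1(L63S)* and *OLE1(FAR)* in that order, and of these 4 genes each passed in *OAF1(L63S)* alone.

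For 6 of the genes lower in *OAF1(L63S)*, picked here after their values were seen, the strains lay on either side of the wild type. *IZH4* had log2 fold changes of -2.23 in *OAF1(L63S)* and 1.54 in *OLE1(FAR)*, *MGA2* of -0.80 and 0.50, *PLB2* of -0.58 and 0.36, *TIP1* of -0.48 and 0.41, *IZH1* of -0.30 and 0.35 and *FAA4* of -0.29 and 0.31. All 12 of these values passed the 10% FDR in edgeR. In the same fit, 13 of the 139 genes passed against YFA1130 in both strains and 57 in neither. The 13 also hold *ALE1* and *YGL039W*, on either side of the wild type, and *COS8*, below it in both strains. *IZH2* and *ATF1* passed in *OLE1(FAR)* alone, with log2 fold changes of -0.18 in *OAF1(L63S)* and 0.35 in *OLE1(FAR)* for *IZH2* and of -0.14 and 0.36 for *ATF1*. *FAS1*, *FAS2* and *ACC1* passed in *OAF1(L63S)* alone in this fit, with -0.34, -0.25 and -0.30, against 0.26, 0.21 and 0.29 in *OLE1(FAR)*. As labelled, *FAS1* and *ACC1* passed in *OLE1(FAR)* too, at 0.27 and 0.28 (edgeR adjusted p = 0.0284 and 0.0299). *OLE1* was at 0.23 in *OAF1(L63S)*, which passed, and -0.12 in *OLE1(FAR)*, which did not. For *BIO3* neither passed, at -1.10 in *OAF1(L63S)* and 0.95 in *OLE1(FAR)*. A gene that passes in one comparison and not in the other is not thereby shown to differ between the strains, and the direct contrast above is the test of that.

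**Figure D4:**
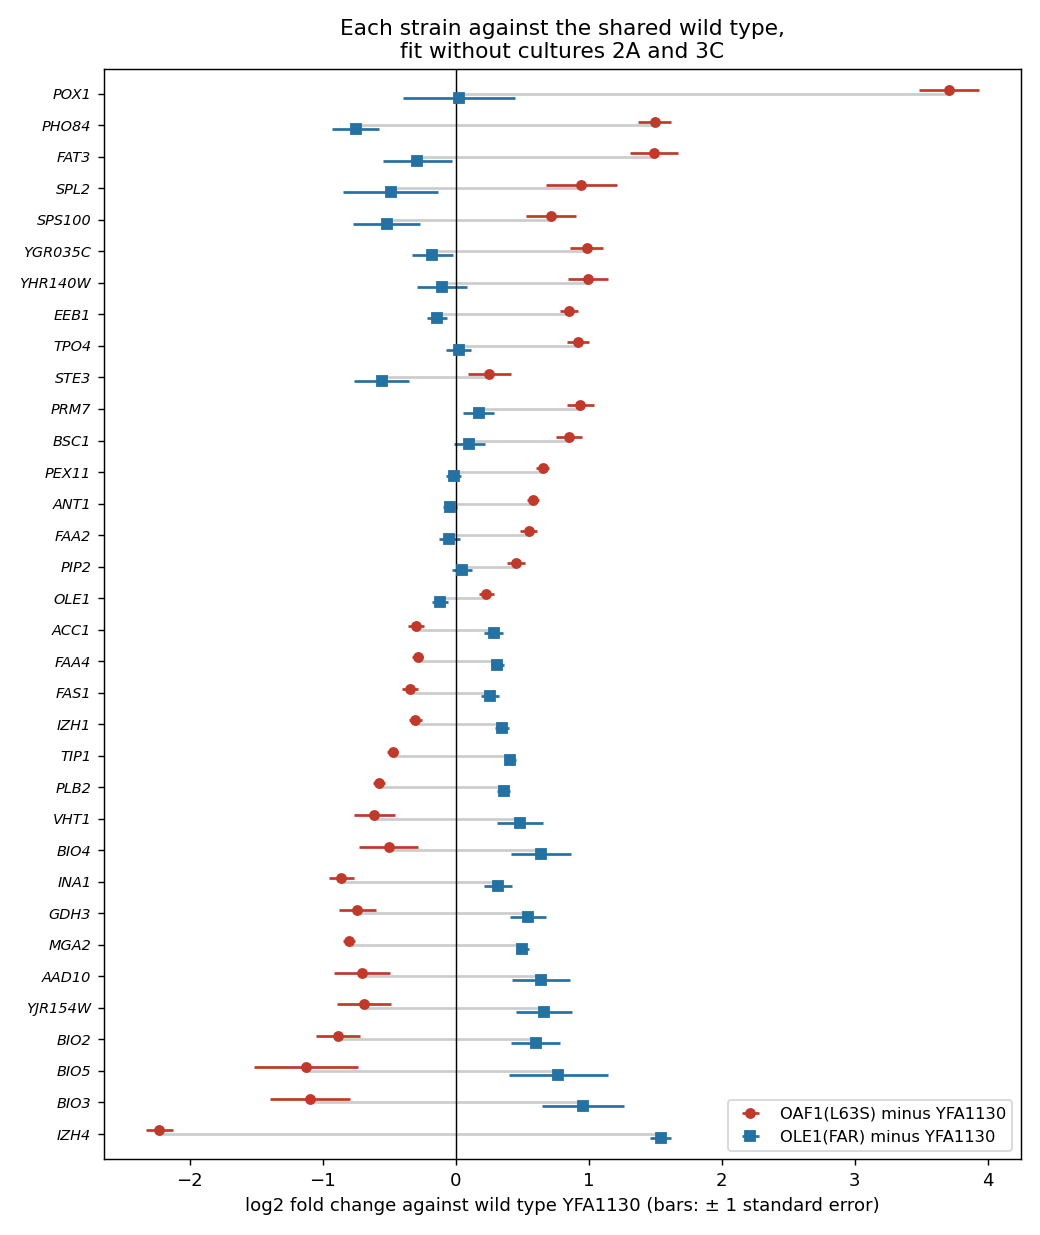
Log2 fold change against YFA1130 of 34 genes in *OAF1(L63S)* and in *OLE1(FAR)*, from the fit without 2A and 3C, with bars of 1 standard error. Both comparisons share the YFA1130 cultures. *POX1* stands at 3.71 in *OAF1(L63S)* and 0.02 in *OLE1(FAR)*, and *IZH4* at -2.23 and 1.54 on either side of 0.

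Within single harvest batches the direct differences of the leading genes had the same sign as in the fit. Between 2E and 2F on one side and 3E, 3F and 3G on the other, all of harvest 3, the difference of mean log2 levels was 3.77 for *POX1*, 0.863 for *EEB1*, 0.657 for *PEX11*, -3.78 for *IZH4*, -1.23 for *MGA2*, -0.859 for *PLB2* and -0.572 for *FAA4*. Between 2D and 3D of harvest 2 the differences were 2.80, 1.07, 0.664, -3.51, -1.28, -0.842 and -0.492 for the same genes. Neither 2A nor 3C enters these values, and with at most 3 libraries on a side they carry no test. The same libraries were part of the fit that ranked these genes, so the shared signs are no independent check. Nothing in the labels says that the cultures were more than parallel cultures of 1 strain, so p-values measure the spread between these cultures.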

How the data were processed

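Poly-A RNA of 25 cultures was sequenced with a stranded kit (NEB Ultra II Directional). Per the labels and the study's methods, the authors trimmed reads with Trimmomatic 0.38 after bcl2fastq 2.20.0.422 and had kallisto (version not given in the sources used here) estimate counts per gene of the R64 (sacCer3) annotation. The deposited values are these estimated counts, without normalization, of 6713 genes. Of them 6.55% were not whole, and all were rounded. Because kallisto can divide reads among similar genes, such counts are less certain for repeated families.

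The 5713 genes with an estimated count above 0 in each of the 25 libraries before rounding (12 of them rounded to 0 in at least 1 library) were tested with edgeR 4.0.16 (quasi-likelihood test, TMM, Benjamini-Hochberg adjustment over all genes, FDR 10%) in R 4.3.3. The fit held genotype, harvest (3 levels), RNA isolation (5 levels), library preparation (2 levels) and 2 surrogate variables (sva 3.50.0), with 11 residual degrees of freedom, or 9 without 2A and 3C. Each isolation batch held 1 culture of every strain and served as the replicate block. Deviations of same-batch cultures of the 2 strains correlated at 0.0555, -0.21, -0.0235, 0.438 and 0.0923, and the pairing comes from the batch records. DESeq2 1.42.0 was an alternative. Single genes were tested by exact permutation of log2(CPM + 0.5). The median standard error of a log2 fold change was 0.0658 as labelled and 0.0719 without 2A and 3C, which sets the precision at this depth.

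Named genes were the 12 largest and 12 smallest log2 fold changes of genes called in both fits with a mean of at least 1 CPM in either strain, leaving out transposon, Y-prime helicase and *COS* genes and genes of identical counts, the edited loci, *FAA4*, *MGA2* and *POX1*, and the called members of 17 gene lists with up to 4 others of each. Members, lists and tests were chosen with earlier results of these data known. Scripts were tested on simulated data. The edits themselves were not checked in reads.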

Additional observations from a re-analysis of the deposited data

Results flagged for a closer look

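Single libraries stood far from the other 4 of their label, by Dixon's test, in 17 of 58 groups of 5 libraries. Chance flags about 1 in 20 groups where genes are not chosen by the data. Most of the flagged genes were named for their differences in the fit without 2A and 3C, and the groups share the same libraries. That rate is therefore no baseline for the 17. All 17 were in 2A (7) or 3C (10), and none in another library. In the library labelled 2A the *OAF1(L63S)* level was 1.577 CPM for *POX1*, 242.8 CPM for *EEB1*, 47.57 CPM for *IZH4*, 57.38 CPM for *BIO3*, 289.4 CPM for *MGA2*, 13.14 CPM for *GDH3* and 20.94 CPM for *BIO4*. In the library labelled 3C the *OLE1(FAR)* level was 28.4 CPM for *POX1*, 44.45 CPM for *PHO84*, 6.672 CPM for *FAT3*, 10.73 CPM for *YHR140W*, 407.9 CPM for *EEB1*, 2.434 CPM for *IZH4*, 118.9 CPM for *MGA2*, 196.6 CPM for *INA1*, 108.7 CPM for *PLB2* and 496.2 CPM for *FAA4*. Each gene that was high in the other *OAF1(L63S)* libraries than 2A was low in 2A and each that was low in them was high, and 3C stood to the other *OLE1(FAR)* libraries in the same way. By the study's library numbers, culture 2A was library 9, recorded in preparation batch 2A between neighbours of batch 1B, and culture 3C was library 14, recorded in batch 1B between neighbours of batch 2A (these batch names are not culture names). Whether the libraries were exchanged was not tested beyond these values.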

How the results depend on the processing

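As labelled, 174 genes were called. That number was 32 without surrogate variables, 40 with 1, 0 with genotype only (233 at an unadjusted p under 0.05), 0 with the 2 strains alone and genotype only (212) and 0 with the 2 strains alone and the replicate block (227), all in edgeR. With library preparation at 4 levels it was 92, and with harvest batches 2 and 3 and no surrogate variables 28. Leaving out each library in turn gave 104 (2D or 2E) to 212 genes (2F). Without 2A and 3C, 155 genes were called, against 100 with genotype only, 97 and 30 with the 2 strains alone (genotype only, and with the replicate block), 83 with preparation at 4 levels and 101 with harvests 2 and 3. Leaving out 1 more library gave 110 (2E) to 210 (3F). Without isolation batch as a replicate block the counts were 239 and 195. DESeq2 called 135 and 125, and the normalization, the count filters and an added estimate of the surrogate variables, chosen after seeing the data, gave 144 to 175. The cause of these shifts was not tested. Of 53 genes named and called without 2A and 3C, 18 lost the call in at least 1 fit that left out a library and 38 in at least 1 other setting. *POX1*, *PHO84*, *FAT3*, *EEB1*, *PIP2*, *ANT1*, *PEX11*, *IZH4*, *IZH1*, *IZH2*, *MGA2*, *GDH3*, *INA1*, *PLB2* and *TIP1* kept it in every setting tried (15 genes). As labelled, all 53 lost it in at least 1 setting. *OAF1*, *SDS23* and *CIT2* changed sign under some settings, with no adjusted p under 0.1 where they did. *OAF1* as labelled was at 0.00904 with preparation at 4 levels and from -0.0638 to 0.0402 with each library left out. Without 2A and 3C it was at -0.0265 without surrogate variables, -0.0183 with 1, -0.00864 without the replicate block, -0.0123 with the 2 strains alone and the block, -0.0165 with harvests 2 and 3, -0.00531 with at least 10 counts, -0.00977 with the added surrogate variables and from -0.0450 to 0.0570 with 1 more library left out. *SDS23* as labelled was at 0.0112 with genotype only, 0.0199 and 0.0249 with the 2 strains alone (genotype only, and with the block), 0.0707 with preparation at 4 levels and from -0.112 to 0.0270 with each library left out. Without the pair it was at 0.0410 without surrogate variables, 0.0880 with genotype only, 0.0879 and 0.0377 with the 2 strains alone, 0.0644 with preparation at 4 levels, 0.0447 with harvests 2 and 3 and from -0.134 to 0.0381 with 1 more library left out. *CIT2* changed sign to -0.0114 with genotype only and -0.00532 with the 2 strains alone as labelled, and to -0.0401, -0.0407 and -0.0818 (the last with the block) without the pair.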
